A study of Mus musculus with 2 samples.

Results

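The 9 genes described here encode the enzymes of the pentose phosphate pathway and the 2 main cytosolic NADPH-producing enzymes outside it, followed by name in brown adipose tissue of C57BL/6 mice. They are G6pdx, Pgls and Pgd of the oxidative branch, Rpia, Rpe, Tkt and Taldo1 of the non-oxidative branch, and Me1 and Idh1, and all 9 were present among the 31053 genes of both count matrices. Nuclei were profiled in 2 single-nucleus RNA sequencing libraries. The 1cyc library came from mice sampled 4 days after a single transient acute cold exposure, and the TN library from mice kept at thermoneutrality, where brown fat is not called on for heat. Both groups carried the same genotype label, C57BL/6, with no age, sex or substrain given. Each library pooled nuclei from 5 mice, sorted for DAPI staining, so each condition was 1 library, no test between conditions was possible, and condition, pool and library cannot be told apart. All intervals below are 95% counting intervals and hold nothing of the spread between mice.

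The pentose phosphate pathway branches from glycolysis at glucose 6-phosphate. Its oxidative branch releases NADPH and ribulose 5-phosphate, and its non-oxidative branch interconverts sugar phosphates reversibly, so that carbon can pass between ribose 5-phosphate and the glycolytic intermediates. Cytosolic malic enzyme and isocitrate dehydrogenase make NADPH from malate and isocitrate, and fatty acid synthesis, which brown fat carries out alongside heat production, is a large consumer of NADPH.

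Adipocyte nuclei were barcodes with at least 4 UMIs, counted molecules, of Pparg, Acsl1, Pde3b and Ppara together and under 5% mitochondrially encoded UMIs. This gave 912 of 4321 barcodes (21.1%) in 1cyc and 1081 of 2551 (42.4%) in TN, with 989852 UMIs in 1cyc and 1193078 in TN, or a median of 966.5 UMIs per nucleus in 1cyc and 873 in TN. All 15 adipocyte marker genes outside the gate had UMIs in both libraries, and together they reached 13452 CPM in 1cyc and 12957 CPM in TN, where CPM is the count in every 1000000 UMIs of the summed nuclei. Marker lists of other cells also had UMIs in the gated nuclei, and most were lower in 1cyc. The fibroblast list summed to 295 CPM in 1cyc and 643 CPM in TN, and the endothelial list to 242 CPM in 1cyc and 604 CPM in TN. The macrophage list summed to 104 CPM in 1cyc and 401 CPM in TN, and the white adipocyte list to 686 CPM in 1cyc and 1686 CPM in TN, whereas the skeletal muscle list summed to 407 CPM in 1cyc and 98.1 CPM in TN. Haemoglobin UMIs made up 0.273% of the adipocyte sum in 1cyc and 3.65% in TN, mostly in 3 TN barcodes of an erythroid cluster, which lowers every other CPM of TN by that share. The deposited matrices differed in their lowest barcode, 262 UMIs in 1cyc and 500 in TN, and shared 6 barcode strings.

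Promoter sequences are given for 3 members because they show the range of levels described below. Tkt is the member with the highest level and the largest difference between libraries among those with at least 100 UMIs. G6pdx encodes the first enzyme of the oxidative branch, and Me1 the malic enzyme that supplies NADPH by another route. Each sequence runs 5′ to 3′ on the strand of the gene, from 250 bases before to 50 bases after a RefSeq start site on GRCm38.p6, at chr14:30548881-30549180 on the plus strand for Tkt, chrX:74428831-74429130 on the minus strand for G6pdx and chr9:86695865-86696164 on the minus strand for Me1. Capitals mark a match to TGACNNNGC, the core of the antioxidant response element.
Tkt: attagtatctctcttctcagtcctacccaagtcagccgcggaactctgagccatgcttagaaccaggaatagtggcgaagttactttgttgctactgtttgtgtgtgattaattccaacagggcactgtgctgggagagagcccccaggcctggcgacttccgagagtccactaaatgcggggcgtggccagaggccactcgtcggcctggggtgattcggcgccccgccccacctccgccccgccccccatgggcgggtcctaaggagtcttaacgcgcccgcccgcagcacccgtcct
G6pdx: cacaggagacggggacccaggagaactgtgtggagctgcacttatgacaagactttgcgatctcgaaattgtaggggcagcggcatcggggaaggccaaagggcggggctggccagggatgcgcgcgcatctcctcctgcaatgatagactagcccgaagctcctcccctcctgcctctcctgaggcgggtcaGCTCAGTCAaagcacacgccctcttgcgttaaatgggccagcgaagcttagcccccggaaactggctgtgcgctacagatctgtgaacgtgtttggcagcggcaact
Me1: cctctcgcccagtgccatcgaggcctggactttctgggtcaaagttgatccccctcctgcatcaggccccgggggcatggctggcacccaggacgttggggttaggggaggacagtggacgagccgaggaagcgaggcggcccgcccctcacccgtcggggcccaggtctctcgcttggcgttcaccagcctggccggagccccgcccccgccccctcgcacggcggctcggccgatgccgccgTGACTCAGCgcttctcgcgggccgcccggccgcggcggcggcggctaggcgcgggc
TGACNNNGC, searched on both strands, was found in at least 1 promoter of 3 of the 9 members, against 14.0% of the 27025 genes with an entry. The match in G6pdx began 57 bases before the start and lay on the opposite strand, the match in Me1 began 6 bases before it, and the third was at an alternative start of Pgd. CACGTG, the E-box that forms part of the carbohydrate response element and reads the same on both strands, was in none of the 12 entries of the 9 members, against 8.09% of all genes. The Tkt window held neither motif, which says only that these letters are not in these 300 bases. The Tkt and G6pdx windows lie wholly inside the GENCODE M21 gene models. These begin at chr14:30548359 for Tkt and, on the minus strand, at chrX:74429194 for G6pdx. The RefSeq start sites used for both thus lie downstream of those gene starts, and the bases around the gene starts were not searched. Base composition differed as well, with 61.0% G and C in Tkt, 60.0% in G6pdx and 74.7% in Me1, against a median of 52.7% over all promoters.

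Among the 9 members, Tkt had the highest level by a wide margin and was the 1 member past a 2-fold difference in adipocyte nuclei. Tkt encodes transketolase, the thiamine-dependent enzyme of the non-oxidative branch that moves 2-carbon units between sugar phosphates. It had 848 UMIs in 1cyc and 399 in TN, which is 857 CPM (from 800.0 to 916) in 1cyc and 334 CPM (from 302 to 369) in TN. The CPM ratio of 1cyc over TN was 2.56, from 2.27 to 2.89, and placed Tkt at rank 15 of the 3643 genes with at least 100 UMIs over both libraries. By level it ranked 107 of these genes in 1cyc and 390 in TN. Of the 9 members, 5 had at least 100 UMIs, and 1 of these, Tkt, was 2-fold or more higher and none 2-fold or more lower, against 1.54% of the 3643 genes higher and 2.14% lower.

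**Figure D1:**
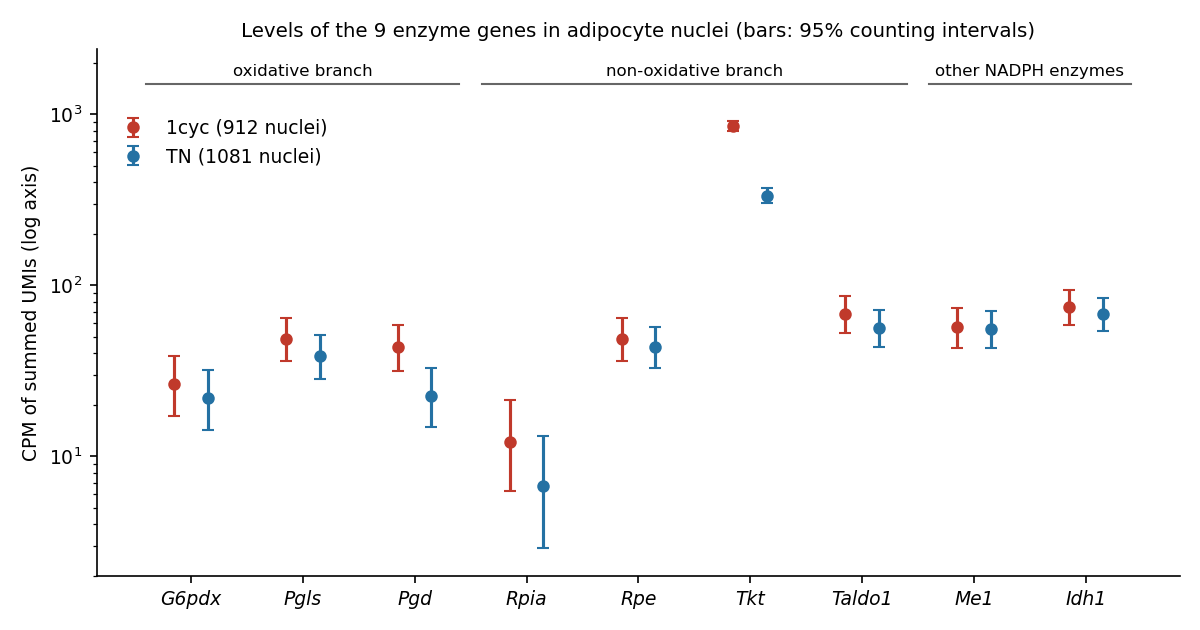
CPM of each of the 9 genes in adipocyte nuclei of 1cyc (red) and TN (blue), on a log axis, with 95% counting intervals from the summed UMIs. Tkt lies far above the other 8 genes in both libraries, and its intervals in 1cyc and TN do not overlap.

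The other enzymes of the non-oxidative branch had far fewer UMIs than Tkt. Taldo1 encodes transaldolase, which moves 3-carbon units and works in sequence with transketolase. It had 67 UMIs in each library, 67.7 CPM in 1cyc and 56.2 CPM in TN, a ratio of 1.21 (0.846 to 1.72). A single TN barcode held 8 of its UMIs. That barcode had 7734 UMIs in all and lay in the unnamed cluster led by the immune cell genes Lyz2, Cd74 and F13a1, and without it Taldo1 stood at 49.8 CPM in TN. Rpe, which encodes the epimerase that turns ribulose 5-phosphate into xylulose 5-phosphate, a substrate of transketolase, had 48.5 CPM in 1cyc and 43.6 CPM in TN, a ratio of 1.11 (0.736 to 1.68). Rpia, the isomerase that makes ribose 5-phosphate, was the lowest of the 9 with 12 UMIs in 1cyc and 8 in TN, or 12.1 CPM in 1cyc and 6.71 CPM in TN, and its ratio of 1.81 had an interval from 0.680 to 5.10. The intervals of all 3 ratios include 1, so a difference was not detectable at this depth.

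The oxidative branch was sparse in these nuclei. G6pdx, which encodes glucose 6-phosphate dehydrogenase, the entry enzyme that makes the first NADPH, had 26 UMIs in each library, or 26.3 CPM in 1cyc and 21.8 CPM in TN, a ratio of 1.21 (0.672 to 2.16). Pgls, the lactonase of the next step, had 48.5 CPM in 1cyc and 38.6 CPM in TN, a ratio of 1.26 (0.822 to 1.93). Pgd encodes 6-phosphogluconate dehydrogenase, which makes the second NADPH, and had 43 UMIs or 43.4 CPM in 1cyc against 27 UMIs or 22.6 CPM in TN. Its ratio of 1.92 (1.16 to 3.23) was the only one besides that of Tkt whose interval lay above 1. The value for Pgd rested on few molecules, and it moved to 1.18 (0.449 to 3.06) and 0.938 (0.327 to 2.56) in 2 random draws that thinned every nucleus to 500 UMIs before gating. Summed, the 3 oxidative genes had 117 UMIs or 118 CPM in 1cyc and 99 UMIs or 83.0 CPM in TN, a ratio of 1.42 (1.08 to 1.88). Of the 3, only Pgd had an interval above 1 by itself, and in gated barcodes of 5% or more mitochondrially encoded UMIs the same sum had a ratio of 1.01 (0.70 to 1.46).

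Me1 and Idh1, the NADPH enzymes outside the pathway, were at nearly the same level in both libraries. Me1, the cytosolic malic enzyme that turns malate into pyruvate, had 56 UMIs in 1cyc and 66 in TN, 56.6 CPM in 1cyc and 55.3 CPM in TN, a ratio of 1.02 (0.703 to 1.48). Idh1, the cytosolic and peroxisomal isocitrate dehydrogenase, had 74.8 CPM in 1cyc and 67.9 CPM in TN, a ratio of 1.10 (0.792 to 1.53). Both intervals leave room for a modest difference in either direction and lie below the ratio of Tkt.

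**Figure D2:**
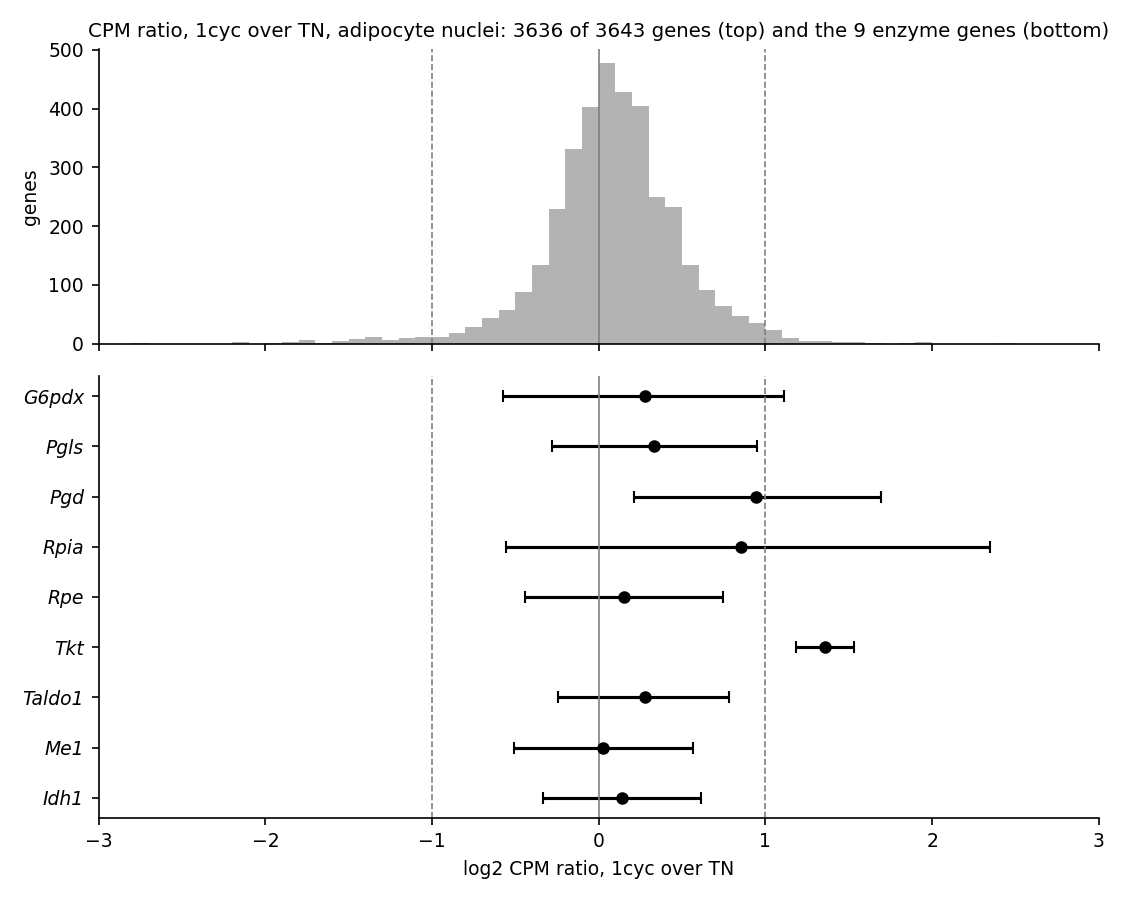
CPM ratio of 1cyc over TN in adipocyte nuclei on a log2 axis, as a histogram of 3636 of the 3643 genes with at least 100 UMIs (7 lie outside the axis) above the 9 members with 95% counting intervals; dashed lines mark 2-fold in either direction. The Tkt interval lies wholly above the 2-fold line, and those of the other 8 members reach below it.

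All 9 ratios were above 1, with a median log2 ratio of 0.27, but the direction of the small ones depended on the scaling and on the nuclei taken. Over the 3643 genes the median log2 ratio was 0.09 and 60.9% had a ratio above 1, so a ratio slightly above 1 was the usual value. Under TMM scaling the median of all genes moved by -0.10 and Me1 stood at 0.954. With median-ratio size factors it moved by -0.16, and Rpe (0.997), Me1 (0.916) and Idh1 (0.986) were below 1. Me1 was also below 1, at 0.988, when haemoglobin UMIs were left out of the totals. Tkt stayed above 2-fold in each of these, at 2.39 with TMM, 2.29 with median-ratio size factors and 2.47 without haemoglobin. With no mitochondrial limit, G6pdx (0.912), Me1 (0.970) and Idh1 (0.938) were below 1. At a mitochondrial limit of 2%, Rpe (0.905), Taldo1 (0.970) and Me1 (0.896) were below 1. Me1 was above 1 in 4 of 15 other settings of nuclei and scaling. The split of 2-fold calls moved with the scaling too, with 41.8% of them on the higher side as scaled here, 26.2% with TMM, 19.8% with median-ratio size factors and 31.5% without haemoglobin.

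Set against the other members within a library, which needs no scaling, Tkt had a larger share in 1cyc. It held 69.4% (66.7 to 72.0) of the UMIs of the 9 genes in 1cyc and 51.7% (48.1 to 55.3) in TN. Per UMI of the oxidative branch there were 7.25 Tkt UMIs (5.97 to 8.87) in 1cyc and 4.03 (3.23 to 5.07) in TN, and the odds in 1cyc over those in TN were 1.80 (1.33 to 2.43). Per Me1 UMI there were 15.1 Tkt UMIs (11.5 to 20.2) in 1cyc and 6.05 (4.65 to 7.97) in TN, with an odds ratio of 2.50 (1.69 to 3.72). Per Idh1 UMI there were 11.5 (9.03 to 14.7) in 1cyc and 4.93 (3.87 to 6.34) in TN, with an odds ratio of 2.33 (1.64 to 3.31). These 3 odds ratios share the Tkt counts and are not independent of each other.

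The same comparison with single genes gave odds ratios above 1 for every partner, though not all with an interval above 1. They were 2.13 (1.17 to 3.86) against G6pdx, 2.04 (1.30 to 3.17) against Pgls, 2.30 (1.5 to 3.55) against Rpe and 2.13 (1.46 to 3.09) against Taldo1. Against Pgd the odds ratio was 1.33 (0.781 to 2.25), and against Rpia 1.42 (0.498 to 3.80), so Tkt and these 2 genes could not be told apart in how far they differed between libraries. Against the gate genes the odds ratio of Tkt was 2.25 (1.98 to 2.55) for Pparg and 1.83 (1.62 to 2.08) for Ppara. The nuclei were chosen by UMIs of these genes, so their counts depend in part on the gate and are not an independent reference. The gate genes Acsl1 and Pde3b were not set against Tkt in this way.

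**Figure D3:**
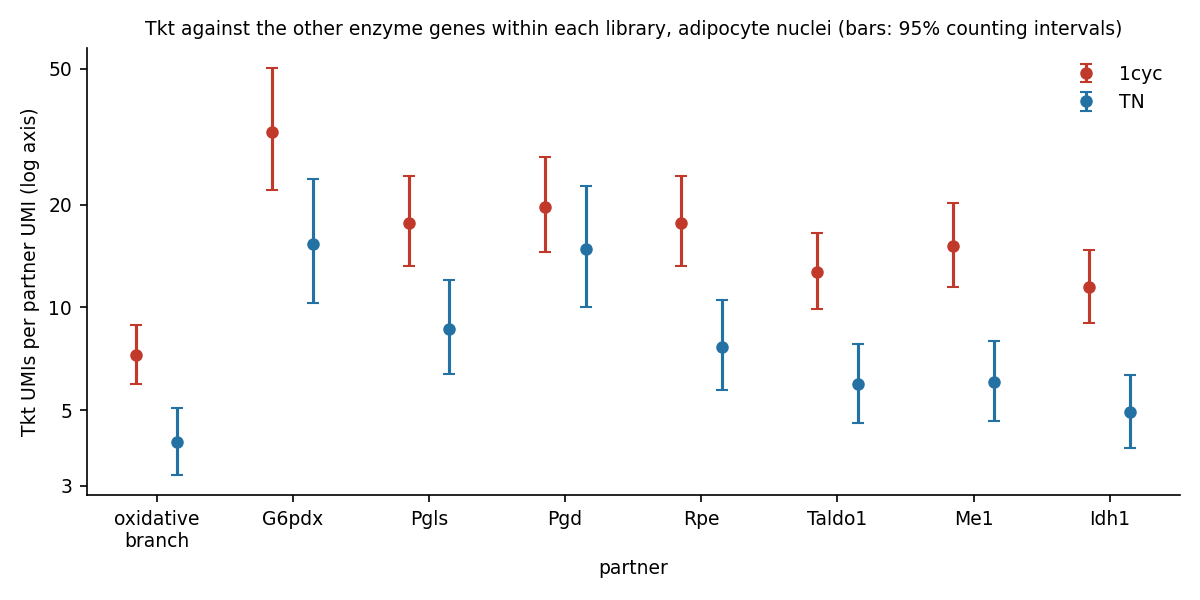
Tkt UMIs per UMI of the oxidative branch and of 7 single members in adipocyte nuclei, on a log axis, for 1cyc (red) and TN (blue) with 95% counting intervals. The 1cyc value is above the TN value for each partner shown, from 7.25 against 4.03 for the oxidative branch to 32.6 against 15.3 for G6pdx, and the intervals overlap for G6pdx and Pgd.

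Levels between genes were compared per kilobase of exon, from the gene models of GENCODE M21 on mm10. Tkt (chr14:30548359-30574720, plus strand) stood at 116.5 CPM per exon kb in 1cyc and 45.5 in TN. Taldo1 followed with 31.2 in 1cyc and 25.9 in TN, and Idh1 with 27.0 in 1cyc and 24.5 in TN. Rpe, Me1 and Pgls lay between 10.2 and 15.6 over the 2 libraries, G6pdx and Pgd between 3.51 and 8.53, and Rpia was lowest with 2.26 in 1cyc and 1.25 in TN. The sources used here do not say whether reads in introns were counted. Divided by whole gene length instead, Tkt was again highest with 32.5 CPM per kb in 1cyc and 12.7 in TN, but Me1, which spans 114583 bases on chr9, was near the low end with 0.494 in 1cyc and 0.483 in TN.

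Some members overlap other genes. Rpe on chr1 lies opposite Kansl1l, which had 548 UMIs in 1cyc and 600 in TN, G6pdx on chrX lies opposite Ikbkg with 33 UMIs in 1cyc and 29 in TN, Me1 lies opposite a noncoding gene, A330041J22Rik, with 4 UMIs in 1cyc and 5 in TN, and Pgls overlaps Fam129c on the same strand, with 4 UMIs in each library. The counts of these 4 members are uncertain to the extent that reads were assigned to the wrong gene, which was not tested. The retrogene copy G6pd2 had no UMI in the adipocyte nuclei of either library.

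Nuclei with a Tkt UMI made up 49.5% (46.2 to 52.7) of adipocyte nuclei in 1cyc and 28.4% (25.7 to 31.2) in TN. With every nucleus thinned to 500 UMIs, which left out 125 nuclei of 1cyc and none of TN, the share was 33.8% (30.5 to 37.2) in 1cyc and 15.2% (13.1 to 17.5) in TN. The variance of thinned Tkt counts over their mean was 1.10 in each library, where counting alone gives 1. At means of 0.435 UMIs per nucleus in 1cyc and 0.175 in TN, this value stays near 1 even where levels differ between nuclei. It therefore cannot show whether Tkt was even across nuclei. The highest count in any unthinned nucleus was 9 in 1cyc and 4 in TN. In nuclei named as other cell types, with a median of 986 UMIs in 1cyc and 1240 in TN, the unthinned share with a Tkt UMI was 16.4% (10.2 to 24.4) in 1cyc and 13.2% (9.14 to 18.2) in TN. No other member was found in more than 7.35% of adipocyte nuclei of either library.

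Among gated nuclei split by clustering, Tkt was higher in 1cyc in the 3 clusters that held most of them. The cluster led by Ppp1r3b, Ucp1 and Kcnk3 had 951 CPM of Tkt in 1cyc and 395 CPM in TN, a ratio of 2.41 (1.96 to 2.97). That led by Zswim5, Acaa1a and Tfrc had 948 CPM in 1cyc and 410 CPM in TN, a ratio of 2.31 (1.80 to 3.0), and that led by Rnf182 and Ybx2 had 838 CPM in 1cyc and 318 CPM in TN, a ratio of 2.64 (1.94 to 3.62). The cluster led by Fahd1 and Acat3 had 603 CPM in 1cyc and 498 CPM in TN, a ratio of 1.21 (0.753 to 1.90). Tkt took part in the clustering, so these are descriptions, and with 1 library per condition the difference between clusters was not tested.

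The adipocyte cluster led by Nnat, Slc7a10 and Tshr had a different order of the 9 genes. It held 26 gated nuclei of 1cyc and 93 of TN, and its white adipocyte marker list summed to 8619 CPM in 1cyc and 9237 CPM in TN. Tkt was low there in both libraries, with 164 CPM (65.9 to 338) from 7 UMIs in 1cyc and 176 CPM (115 to 258) from 26 UMIs in TN. Me1 had its highest level of any adipocyte cluster there, with 140.5 CPM (51.6 to 306) from 6 UMIs in 1cyc and 169.0 CPM (109 to 250) from 25 UMIs in TN, so that Tkt and Me1 were nearly level. In TN the cluster held 25 of the 66 Me1 UMIs and 10 of the 26 G6pdx UMIs of all adipocyte nuclei, and G6pdx stood at 67.6 CPM (32.4 to 124), while in 1cyc it had no G6pdx UMI, which allows up to 86.4 CPM. The share of nuclei with a Me1 UMI was 15.4% (4.36 to 34.9) in 1cyc and 23.7% (15.5 to 33.6) in TN.

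**Figure D4:**
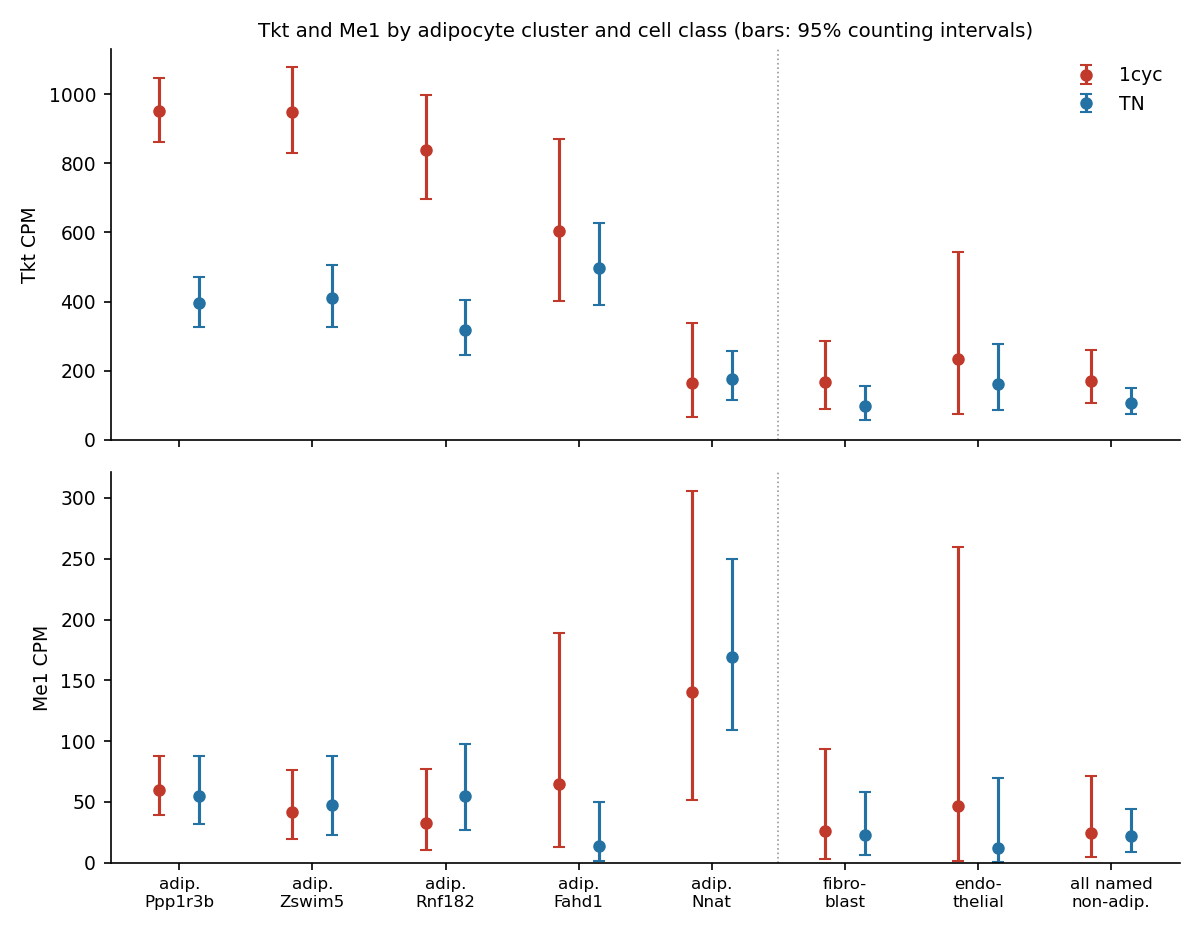
CPM of Tkt (top) and Me1 (bottom) in gated nuclei of 5 adipocyte clusters (adip., labelled by their leading gene) and in other cell classes, for 1cyc (red) and TN (blue) with 95% counting intervals. Tkt separates the libraries in the first 3 clusters and is lowest among adipocyte clusters in the Nnat cluster, where Me1 is highest.

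Outside adipocytes, the members were at low counts. Named non-adipocyte nuclei numbered 116 in 1cyc and 235 in TN and had 170 CPM of Tkt (105.5 to 260) from 21 UMIs in 1cyc and 108 CPM (75.1 to 150.0) from 35 UMIs in TN, a ratio of 1.58 (0.874 to 2.79). Fibroblast or progenitor nuclei had 168.0 CPM of Tkt in 1cyc and 96.6 CPM in TN, and endothelial nuclei 233 CPM in 1cyc and 162 CPM in TN. Skeletal muscle nuclei had 2 Tkt UMIs in each library, pericytes 1 in 1cyc and 2 in TN, smooth muscle none in 1cyc and 1 in TN, and the 8 erythroid barcodes, all of TN, had 1. Adipocyte markers were also found in these nuclei, at 4608 CPM in 1cyc and 6539 CPM in TN for the whole list, and the part of free RNA in these Tkt counts was not tested. Of these nuclei, 92 in 1cyc and 173 in TN also lay outside the gate. There Tkt stood at 16.3% (8.65 to 28.0) of its adipocyte level in 1cyc and 21.7% (12.3 to 35.6) in TN. The adipocyte markers had a median of 10.6% in 1cyc and 10.8% in TN. They ranged from 0 to 97.0% in 1cyc and from 0 to 108% in TN, so Tkt lay inside their range.

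Idh1 had the most UMIs of the other 8 members in these nuclei in TN. In nuclei outside the gate it stood at 14.4% (0.359 to 82.6) of its adipocyte level in 1cyc, from 1 UMI, and at 93.4% (48.9 to 166) in TN, from 14 UMIs. Fibroblast or progenitor nuclei had 12.9 CPM of Idh1 from 1 UMI in 1cyc and 68.2 CPM from 12 UMIs in TN, a ratio of 0.189 with an interval from 0.00443 to 1.28. For the other members, the counts in non-adipocyte nuclei ranged from 0 to 4 UMIs in 1cyc and from 2 to 10 in TN and set no order. The unnamed cluster led by Lyz2, Cd74 and F13a1 had 780 CPM of Tkt from 31 UMIs in 1cyc and 173 CPM from 8 UMIs in TN. The adipocyte marker list in that cluster summed to 8359 CPM in 1cyc and 1297 CPM in TN, and the macrophage list to 3878 CPM in 1cyc and 16037 CPM in TN. Their part in the Tkt values was not tested.

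Among 1cyc adipocyte nuclei, Tkt was higher where the fatty acid synthesis genes Acly, Acaca, Acss2, Fasn, Scd1 and Elovl6 had more UMIs. In nuclei thinned to 500 UMIs with 0, 1, 2, 3 and 4 or more UMIs of these genes, Tkt in 1cyc stood at 655, 676, 815, 978 and 1455 CPM. In TN the same 5 groups had 328, 355, 404, 274 and 367 CPM. The group with 4 or more over the group with none gave a Tkt ratio of 2.22 (1.58 to 3.14) in 1cyc and 1.12 (0.489 to 2.27) in TN, where the highest group held 9 Tkt UMIs in 49 nuclei. The difference between these 2 ratios was not tested, and their intervals overlap. Ppara, a gate gene, gave 1.41 (1.25 to 1.60) in 1cyc and 0.964 (0.792 to 1.17) in TN over the same groups, and Pparg 1.04 (0.899 to 1.20) in 1cyc and 1.22 (1.01 to 1.47) in TN. The oxidative branch gave 2.45 (0.908 to 7.25) in 1cyc and 1.19 (0.130 to 5.24) in TN, and Me1 0.989 (0.145 to 5.84) in 1cyc and 0.857 (0.0196 to 6.19) in TN, both too sparse to set beside Tkt.

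The nuclei with no lipogenic UMI had 655 CPM of Tkt (496 to 849) in 1cyc and 328 CPM (251.5 to 420.5) in TN, and these intervals do not overlap. The highest of the 5 TN groups, that with 2 lipogenic UMIs, had 404 CPM (290 to 548), which overlaps the interval of the 1cyc nuclei with none. Split by Ucp1, the uncoupling protein of heat production, thinned nuclei with a Ucp1 UMI had 1054 CPM of Tkt (780 to 1393) in 1cyc and 533 CPM (326 to 824) in TN, and those without had 844 CPM (750.5 to 947) in 1cyc and 336 CPM (287 to 391) in TN. Nuclei with a UMI of the white adipocyte list had 646 CPM of Tkt in 1cyc and 379 CPM in TN, and those without 912 CPM in 1cyc and 337 CPM in TN.

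The libraries differed in mitochondrial content, with a median of 22.1% of UMIs per barcode in 1cyc and 4.76% in TN, and Tkt was read across it. With CPM taken over the other UMIs, gated barcodes of 1cyc under 1%, from 1 to 2% and from 2 to 5% had 898, 893 and 841 CPM of Tkt, and those of TN had 219, 357 and 362 CPM. From 5 to 10%, from 10 to 20% and at 20% or more, values in 1cyc were 882, 797 and 1080 CPM, and in TN 325, 256 and 84.0 CPM, the last from 3 UMIs. In gated barcodes of 5% or more, which the adipocyte rule leaves out, Tkt per oxidative branch UMI was 8.34 in 1cyc and 2.98 in TN, an odds ratio of 2.80 (1.85 to 4.2), and the odds ratio against Me1 was 3.12 (1.81 to 5.36). By depth, nuclei under 600, from 600 to 1000, from 1000 to 2000 and at 2000 or more UMIs had 865, 823, 901 and 765 CPM of Tkt in 1cyc, and 364, 385, 368 and 194 CPM in TN. The gate genes were lower too in the TN groups under 1%, at 20% or more and at 2000 or more UMIs. In TN, Ppara had 2496 CPM under 1% and 4234 CPM from 1 to 2%. It had 4789 CPM from 10 to 20% and 2660 CPM at 20% or more. By depth it had 4352 CPM from 1000 to 2000 UMIs and 2005 CPM at 2000 or more. The low Tkt values of these groups are thus not particular to Tkt, and their cause was not tested.

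**Figure D5:**
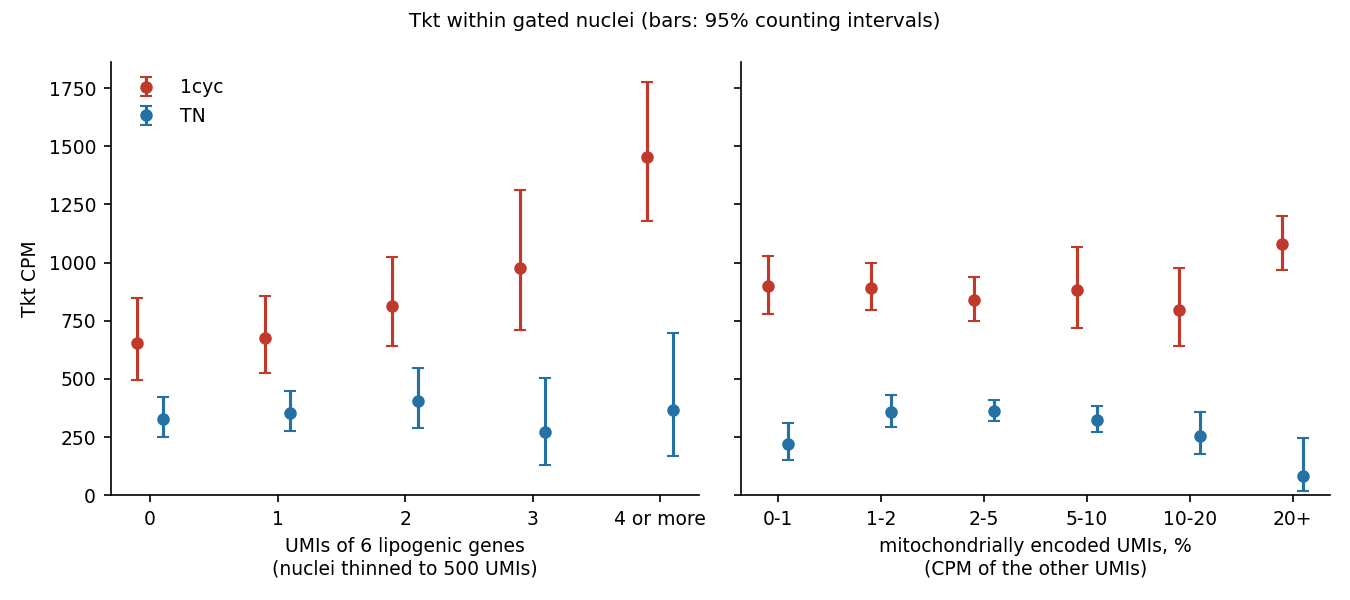
Tkt CPM in gated nuclei of 1cyc (red) and TN (blue) with 95% counting intervals, by the number of UMIs of 6 lipogenic genes in thinned nuclei (left) and by the share of mitochondrially encoded UMIs (right). In 1cyc, Tkt is highest at 4 or more lipogenic UMIs, with 1455 CPM, and each 1cyc point lies above the TN point of the same group.

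Genes around the pathway were counted from lists of related enzymes, beside 8.56% of the 3643 genes with a ratio of 1.5 or more and 5.00% at 1.5-fold or more lower. Of 13 other pentose phosphate and ribose genes, 3 had at least 100 UMIs, with a median log2 ratio of 0.34, and none passed 1.5-fold. They were Gpi1, the glycolytic isomerase that takes fructose 6-phosphate back to glucose 6-phosphate, at 1.47 (1.18 to 1.85), Pgm2 at 1.27 (1.01 to 1.59) and the ribokinase gene Rbks at 0.967 (0.694 to 1.34). The gene named Pgm2 in these matrices encodes a glucose phosphomutase, so the list and its median reach beyond pentose and ribose enzymes. Below that count was H6pd, the glucose 6-phosphate dehydrogenase of the endoplasmic reticulum. It had 30 UMIs or 30.3 CPM in 1cyc and 20 UMIs or 16.8 CPM in TN. Its ratio of 1.81 had an interval from 0.993 to 3.36, which includes 1. Prps1, also below that count, draws ribose 5-phosphate into nucleotide synthesis. It had 9.09 CPM in 1cyc and 26.0 CPM in TN, a ratio of 0.350 (0.147 to 0.753). H6pd and Prps1 were singled out after their values were seen.

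Other NADPH sources had ratios on both sides of 1. Of 13, 5 had at least 100 UMIs, 4 with a ratio above 1 and 1 below, with a median log2 ratio of 0.05 and none past 1.5-fold. The mitochondrial malic enzyme gene Me3 had 315 CPM in 1cyc and 236 CPM in TN, a ratio of 1.33 (1.13 to 1.57), and Glud1, glutamate dehydrogenase, had a ratio of 1.40 (1.09 to 1.82). Idh2, the mitochondrial isocitrate dehydrogenase, stood at 1.03 (0.797 to 1.33), the NAD kinase gene Nadk at 1.04 (0.824 to 1.31) and its mitochondrial relative Nadk2 at 0.714 (0.489 to 1.03). Nnt, the mitochondrial transhydrogenase, had no UMI in any of the 4321 barcodes of 1cyc or the 2551 of TN, which allows up to 1.21 CPM in 1cyc and 1.09 CPM in TN. A deletion in Nnt is known in the C57BL/6J substrain, and the labels name no substrain.

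Of 10 genes that feed citrate and pyruvate into the cytosolic NADPH and acetyl-CoA steps, 7 had at least 100 UMIs. All 7 had a ratio above 1, as did 60.9% of all 3643 genes, with a median log2 ratio of 0.56 against 0.09 over all genes, and 2 were past 1.5-fold. Acly, ATP citrate lyase, had 320 CPM in 1cyc and 117 CPM in TN, a ratio of 2.73 (2.23 to 3.35), and Mpc1, a subunit of the mitochondrial pyruvate carrier, 314 CPM in 1cyc and 199 CPM in TN, a ratio of 1.58 (1.33 to 1.88). Pcx, pyruvate carboxylase, came just under that fold at 1.47 (1.26 to 1.72). Acly is also in the lipogenic list above.

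In fatty acid and sterol synthesis 3 of 10 genes had at least 100 UMIs, with a median log2 ratio of 0.61, of which Tecr at 1.79 (1.27 to 2.52) and Hsd17b12 at 1.53 (1.18 to 1.98), both of fatty acid elongation, passed 1.5-fold and Por, the electron donor of cytochrome P450 enzymes, stood at 0.934 (0.810 to 1.08). Fasn, fatty acid synthase, stayed below the count minimum with 82 UMIs in 1cyc and 16 in TN. It had 82.8 CPM in 1cyc and 13.4 CPM in TN, a ratio of 6.18 (3.59 to 11.3), and is named here after its values were seen. In antioxidant defence 2 of 10 were measured, Txnrd1 at 0.913 (0.619 to 1.34) and Cat at 1.04 (0.856 to 1.27), neither past 1.5-fold, with a median log2 ratio of -0.04. Of 8 target genes of NRF2, a regulator of G6pdx, Pgd, Tkt, Taldo1 and Me1 in other tissues, 2 were measured. They were Txnrd1, given above, and Nfe2l2, the gene of NRF2 itself, at 1.94 (1.48 to 2.54). Below the count minimum, Gclc stood at 1.00 (0.615 to 1.61), Gclm at 1.27 (0.653 to 2.46) and Slc7a11 at 0.826 (0.470 to 1.43). Nqo1, Srxn1 and Hmox1 had at most 2 UMIs in either library. These genes below the minimum were named after their values were seen.

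Target genes of ChREBP, a glucose-responsive regulator of lipogenesis, were higher in 1cyc in 9 of the 9 measured out of 12, with a median log2 ratio of 1.12, 8 past 1.5-fold and 5 past 2-fold. Over all 3643 genes 60.9% had a ratio above 1 and 1.54% were 2-fold or more higher. The list was chosen with earlier results of these data known and is not independent evidence of its direction. The 5 were Pnpla3 at 3.84 (3.1 to 4.78), Ppp1r3b at 3.12 (2.43 to 4.04), Scd1 at 2.98 (2.31 to 3.89), Acly and Gpd1 at 2.17 (1.91 to 2.47). Acaca, Elovl6, Txnip and Mlxipl, the gene of ChREBP itself, stood at 1.75, 1.69, 1.55 and 1.48.

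The genes with profiles most like Tkt over 3 classes in both libraries, 6 points in all, were Wdr45b, Pdpr, Pim1, Acot11 and Cd274, with Pearson correlations of log2(CPM + 10) of 0.996, 0.986, 0.982, 0.975 and 0.972. Pim1 had 243.5 CPM in 1cyc and 64.5 CPM in TN in adipocyte nuclei, and Acot11 234 CPM in 1cyc and 66.2 CPM in TN. Wdr45b had 78.8 CPM in 1cyc and 55.3 CPM in TN, so its likeness is one of order and not of size. For G6pdx the 3 nearest were L3hypdh, Pcf11 and Gm26935, at 0.997, 0.989 and 0.987. The points share libraries, and the fibroblast and endothelial values rest on few UMIs, so with 17 genes at 0.95 or more for Tkt and 22 for G6pdx these are descriptions only.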

How the data were processed

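Per the submitters' processing notes, the authors used Cell Ranger 3 with mm10; the matrix header names version 3.1.0, per the file headers. The deposited matrices hold unnormalized UMI counts for each barcode. The sources do not say whether introns were counted or name the annotation version.

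Members and gene lists were chosen with earlier results of these data known. All 9 members were named, listed genes with at least 100 UMIs were counted and named past 1.5-fold or where a count needed it, and genes alike in profile were the 5 nearest to Tkt and the 3 nearest to G6pdx. UMIs were summed over nuclei per library and scaled to CPM. Intervals at 95% were exact Poisson for CPM, exact conditional binomial for CPM ratios, exact conditional for odds ratios, and Clopper-Pearson for shares. These cover counting error only. A count of 0 allows up to 3 counts for a gene over all barcodes and the upper Poisson bound in a class. Thinning drew 500 UMIs per nucleus without replacement.

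Other cell types came from clusters. Barcodes entered with at least 200 genes and a mitochondrial share under 5%, Scrublet calls (9 in 1cyc, 10 in TN; scanpy 1.11.5) were removed, and 2000 variable genes, 30 principal components and Leiden clustering (leidenalg 0.10.2, resolution 0.6) were used. Names needed 3 markers at 1.5-fold. The gated sums kept Scrublet calls. Of 912 gated nuclei in 1cyc, 827 lay in clusters named adipocyte, as did 992 of 1081 in TN. TMM factors came from edgeR 4.0.16 in R 4.3.3. GENCODE M21 held 99.6% of the gene identifiers. The CPM ratio and its interval were tested on simulated Poisson counts, the model on which the interval rests. These counts held no spread between nuclei, mice or libraries, so the test covers the calculation only. The odds ratio was checked against a known value, without its interval. Some listed genes are not reported here.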

Additional observations from a re-analysis of the deposited data

How the results depend on the processing

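No paired analysis was possible because each condition was 1 library, and no replicate could be left out. The Tkt ratio of 2.56 ranged from 2.16 to 2.87 over 15 settings, and 14 lay within its interval; a second thinning draw, added after the data were seen together with the scaling without haemoglobin, gave 2.16. The odds ratios of Tkt against the oxidative branch (1.72 to 2.18), Me1 (2.21 to 3.20) and Idh1 (1.86 to 2.79) stayed inside their intervals in all 11 settings. Of 120 values of the other 8 members, 119 lay within the interval as reported. All 20 class levels did so at Leiden resolution 1.0. These were Tkt and Idh1 in fibroblast or progenitor, endothelial, skeletal muscle, pericyte and smooth muscle nuclei. Those classes kept nearly the same numbers of nuclei, so their agreement says little about the clustering. The cluster led by Lyz2, Cd74 and F13a1 went from 66 nuclei in 1cyc and 25 in TN to 10 in 1cyc and 18 in TN. Levels in that cluster and in the adipocyte clusters, which were split differently, were not compared. The share of nuclei with a Tkt UMI was 33.8% in 1cyc and 15.2% in TN after thinning.

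Counts of genes at 2-fold moved most. Against 56 higher, there were 36 with a gate of 6 UMIs, 31 in clusters named adipocyte, 28 in gated nuclei of those clusters, 20 and 21 in the thinned draws, 32 with TMM, 24 with median-ratio size factors, 411 with a minimum of 20 UMIs and 3722 with none. Against 78 lower, there were 33 at a mitochondrial limit of 2%, 151 with no limit, 42 in clusters named adipocyte, 39 in gated nuclei of those clusters, 9 and 13 in the thinned draws, 509 with a minimum of 20 UMIs and 3270 with none. Fewer or more genes were tested under these nuclei and minimum settings, which changes the counts; beyond that the cause was not tested. Depth limited the 4 members below 100 UMIs most.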
